A study of Mus musculus with 8 samples.

Results

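The replication-dependent histone genes of the mouse pineal gland were the 67 protein-coding genes whose symbol begins with Hist1h, Hist2h, Hist3h or Hist4h, out of 21980 protein-coding genes and 53710 gene IDs in the table. By genomic cluster, 54 belonged to Hist1 on chromosome 13, 10 to Hist2 on chromosome 3, 2 to Hist3 on chromosome 11 and 1 to Hist4 on chromosome 6. By protein, 6 encoded the linker histone H1, 18 encoded H2A, 18 encoded H2B, 12 encoded H3 and 13 encoded H4. Total RNA, depleted of ribosomal RNA, was sequenced from 4 libraries of 5xFAD glands, numbered 5xFAD-1, 5xFAD-2, 5xFAD-3 and, last, 5xFAD-21, and 4 libraries of wild type glands, numbered WT-11, WT-21, WT-22 and, last, WT-23. Each library was made from a pool of 5 to 7 glands, and values per library are given in this order. 5xFAD mice carry human transgenes with familial Alzheimer's disease mutations, driven by the neuronal Thy1 promoter. C57BL/6 mice from another supplier served as wild type, so that genotype and supplier cannot be told apart. All were said to be males of 5 months, kept under 12 h of light and 12 h of dark and killed 0.5 h after lights on (zeitgeber time 0.5 h). The comparison asked whether the glands of the Alzheimer's disease model and of wild type mice carried different amounts of these mRNAs.

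Replication-dependent histone mRNAs supply the core histones and linker histone that package newly copied DNA. They accumulate during S phase and, unlike nearly all other mRNAs, end in a conserved stem-loop in place of a poly(A) tail. The stem-loop binding protein SLBP holds this element through processing, export and translation, and the mRNAs decay when DNA synthesis stops. Some histone genes are also known to make longer, polyadenylated transcripts in differentiated cells. Pinealocytes, the melatonin-making cells that fill most of the gland, are postmitotic in adult animals. A library of total RNA takes in histone mRNA with and without a poly(A) tail.

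The stem-loop was searched in the GENCODE M21 transcripts of GRCm38 as the arm GGNNCT, the loop TNTN and the arm AGNNCC in a row on the transcribed strand, with the arms complementary. It was found in 46 of the 67 histone genes, against 55 of 21901 protein-coding genes in all (0.251%). The stem separated the classes: its first 6 letters were GGCTCT in all 34 H1, H2A, H2B and H3 genes that held the motif, while 10 H4 genes had GGCCCT and 2 had GGTCCT. The 4 letters of the loop were TTTC in 35 genes, TTTA in 6, TTTT in 3, TCTC in 1 and TCTT in 1. The 7 stem-loops that follow are those of genes on which the comparison turned, with the 16 bases of the motif in capitals and up to 5 flanking bases in lower case, 5′ to 3′. The coordinates given for each gene are those of the motif in GRCm38.
Hist1h2bm (chr13:21722506-21722521, plus strand): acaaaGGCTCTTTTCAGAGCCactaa
Hist1h2be (chr13:23585531-23585546, minus strand): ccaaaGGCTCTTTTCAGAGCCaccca
Hist1h2bk (chr13:22036300-22036315, plus strand): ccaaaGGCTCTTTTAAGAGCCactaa
Hist1h3a (chr13:23761890-23761905, minus strand): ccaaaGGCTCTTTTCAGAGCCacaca
Hist1h4b (chr13:23757366-23757381, plus strand): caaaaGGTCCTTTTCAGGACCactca
Hist1h4d (chr13:23581950-23581965, plus strand): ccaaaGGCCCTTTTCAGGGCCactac
Hist1h4i (chr13:22040966-22040981, minus strand): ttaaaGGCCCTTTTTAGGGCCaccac

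The genes differed in how far their annotated transcript ran past this element. FPKM is the number of fragments scaled by transcript length and by library size. It was made on GENCODE M17, while the transcripts described here are from GENCODE M21, so the lengths counted over may have differed. In 23 genes the longest coding transcript that held the stem-loop ended within 100 bases of it, and in 23 that transcript ran over 100 bases past it. In 21 genes no coding transcript held the motif. The models without the motif included 11 that hold a coding sequence alone, while those of Hist1h2bc and Hist2h2be are longer than 1000 bases and end in other sequence. Of 67 genes, 60 shared at least one stretch of 100 bases, the length of a read, with the transcript of another gene, and 25 shared over 50% of such stretches. The values of these genes depend on how the counting placed reads that match several of them.

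The RefSeq promoters of 59 of the 67 genes, each 250 bases before to 50 bases after the start on GRCm38.p6, were searched on both strands for 3 words, none of which contains another. The octamer ATTTGCAT, a known element of H2B promoters, lay in 6 of 16 H2B and 7 of 15 H2A promoters, in 0 promoters of H1, H3 and H4 genes, and in 1.74% of 32851 promoters of all genes. CCAAT lay in every promoter of the H1, H2A, H2B and H3 genes searched and in 3 of 12 H4 promoters, against 37.4% of all promoters. TATAAA lay in 4 of 6 H1, 10 of 15 H2A, 8 of 16 H2B, 4 of 10 H3 and 8 of 12 H4 promoters, against 13.6% of all promoters. The promoter of Hist1h2bm is shown because this gene had the lowest fold change, and that of Hist1h2bn because it is shared with the divergent gene Hist1h2ak, which had nearly the same fold change. Capitals mark ATTTGCAT, CCAAT and TATAAA on either strand.
Hist1h2bm (chr13:21721794-21722093, plus strand): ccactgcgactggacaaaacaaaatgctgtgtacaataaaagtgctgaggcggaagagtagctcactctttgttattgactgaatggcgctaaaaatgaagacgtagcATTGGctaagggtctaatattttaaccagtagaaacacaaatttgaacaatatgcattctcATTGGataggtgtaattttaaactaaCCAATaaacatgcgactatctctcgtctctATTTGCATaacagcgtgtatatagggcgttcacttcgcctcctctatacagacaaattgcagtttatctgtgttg
Hist1h2bn (chr13:21753826-21754125, plus strand): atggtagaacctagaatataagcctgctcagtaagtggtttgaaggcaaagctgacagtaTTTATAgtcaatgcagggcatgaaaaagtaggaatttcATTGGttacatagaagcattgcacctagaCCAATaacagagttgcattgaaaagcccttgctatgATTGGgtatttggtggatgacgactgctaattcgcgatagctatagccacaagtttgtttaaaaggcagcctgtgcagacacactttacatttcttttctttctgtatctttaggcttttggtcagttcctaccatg

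The deposited table gives FPKM without read counts, so the depth behind each value is unknown, and FPKM of protein-coding genes summed to 320286 to 391275 per library. Pinealocyte markers were abundant in both groups, with a sum of 2032 to 3306 FPKM in 5xFAD libraries and 1291 to 2937 FPKM in wild type libraries over 12 genes. Their median log2 fold change, 5xFAD over wild type, was 0.29 over 11 tested genes, and its part in the results that follow was not tested. WT-22 stood apart from its label, since Xist, the RNA of the inactive X chromosome in females, was at 13.3 FPKM there and at 0.00480 to 0.0404 FPKM in the other 7 libraries. The Y-linked genes Ddx3y, Eif2s3y, Kdm5d and Uty were detected in every library, WT-22 included. Counts of histone genes past a p or with groups that did not overlap are therefore also given without WT-22. Labels and methods do not say how mice were assigned to pools, and p-values measure the spread between pools.

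The histone genes together made up 0.211 to 0.238% of the protein-coding FPKM in 5xFAD libraries and 0.209 to 0.264% in wild type libraries. A few genes carried most of this total: 9 genes with a mean of at least 20 FPKM held 67.9% of it. Hist1h4h held 16.8%, Hist1h2bc 16.3%, Hist1h1c 7.86%, Hist1h4c 6.64% and Hist1h1e 4.82%, followed by Hist1h4i, Hist3h2a, Hist1h4d and Hist1h2be. At the other end, 14 genes had a mean under 1 FPKM and were not tested, and Hist1h2ao was listed at 0 in every library. These 14 were 1 H1, 9 H2A and 4 H2B genes. The testis genes were among them: Hist1h1t, the linker histone of spermatocytes, reached 0.147 to 0.579 FPKM in 5xFAD and 0 to 0.690 FPKM in wild type, Hist1h2aa was above 0 in WT-21 alone (0.324 FPKM), and Hist1h2ba in 5xFAD-1 alone (0.244 FPKM).

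No histone gene differed between 5xFAD and wild type at an adjusted p under 0.05. The comparison used limma on log2(FPKM + 0.1) over the 13094 protein-coding genes with a mean of at least 1 FPKM, of which 53 were histone genes, and fold changes are given on that log2 scale as 5xFAD over wild type. Over all these genes 5 passed (0.0382%), with higher values in 5xFAD for 4 (0.0305%) and lower values for 1 (0.00764%), and the smallest adjusted p of a histone gene was 0.369, for Hist1h2be. At an unadjusted p under 0.05, 14 of the 53 were lower in 5xFAD, where 3.33% of all tested genes were, and 3 were higher, where 4.57% of all tested genes were. Among the 14, Hist1h2bk and Hist1h2bm had 5xFAD means under 1 FPKM and entered the test through wild type. Every 5xFAD library lay below every wild type library for 3 histone genes (2.23% of all tested genes) and above for 2 (2.11% of all tested genes). The fold change was below 0 for 39 of the 53 genes, or 73.6%, against 51.3% of all tested genes. The median log2 fold change of the histone genes was −0.56, against −0.0074 over all tested genes. With libraries scaled to the same protein-coding total, 12 histone genes were lower and 6 higher at that p, and over all tested genes 220 were lower and 879 higher, against 436 and 598 without this scaling. In bulk RNA, fewer cells of a kind that holds these mRNAs and less of them per cell cannot be told apart.

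**Figure D1:**
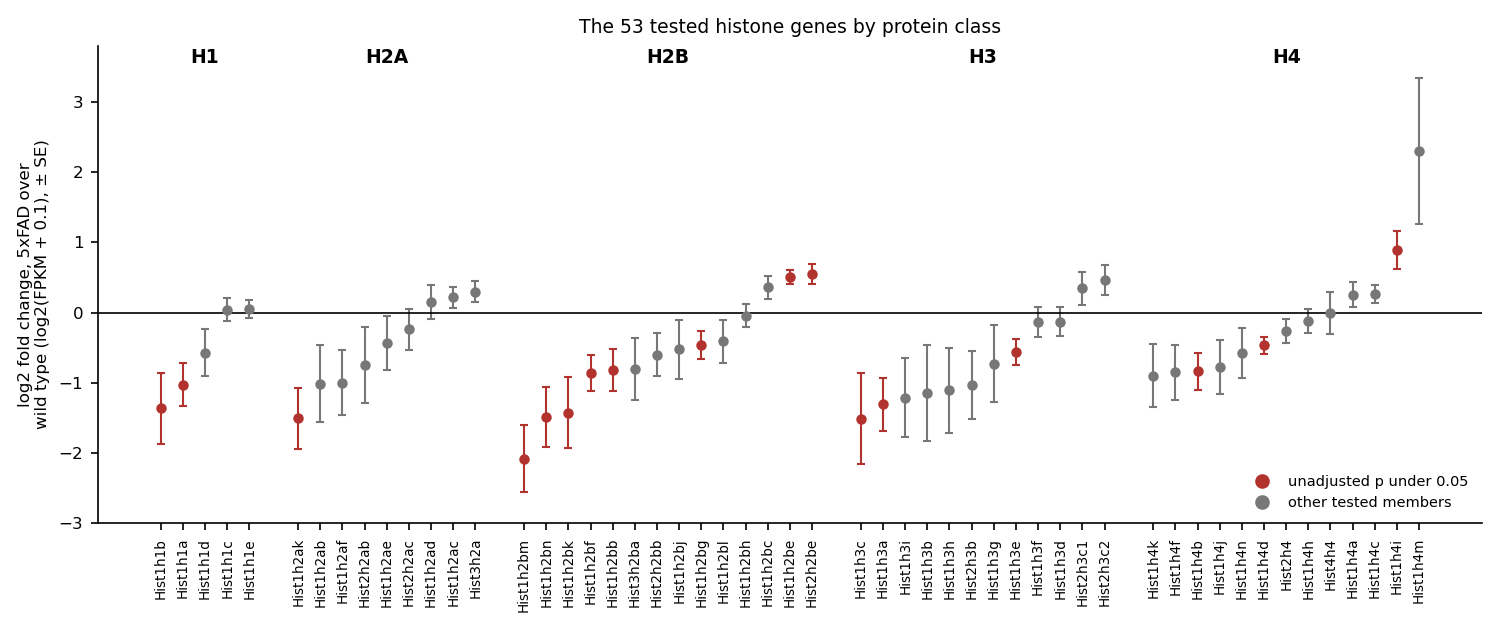
Log2 fold change of each of the 53 tested histone genes, 5xFAD over wild type, on the log2(FPKM + 0.1) scale, grouped by protein class along the horizontal axis and ordered by fold change within a class. Points are limma estimates, bars are standard errors, and red marks an unadjusted p under 0.05, which 14 genes below 0 and 3 genes above 0 reached.

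The counts depended on WT-22. Without this library 7 histone genes passed at an adjusted p under 0.05 in limma, where 0.693% of 13134 tested genes did. These were Hist1h2bk (log2 fold change −1.95, adjusted p = 0.0315), Hist1h2bm (−2.51, adjusted p = 0.0315), Hist1h3a (−1.68, adjusted p = 0.0352), Hist2h3b (−1.54, adjusted p = 0.0441) and Hist1h2bn (−1.88, adjusted p = 0.0492), which were lower in 5xFAD, where 0.145% of tested genes were, and Hist1h4i (1.18, adjusted p = 0.0298) and Hist1h2be (0.57, adjusted p = 0.0499), which were higher, where 0.548% were. Hist1h2bk and Hist1h2bm had 5xFAD means of 0.864 and 0.995 FPKM, under the minimum of 1, and so entered the test through wild type. At an unadjusted p under 0.05, 29 histone genes were lower without WT-22, where 8.44% of tested genes were, and 6 higher, where 9.56% were. Every 5xFAD library lay below the remaining wild type libraries for 24 histone genes, where 7.39% of tested genes did so, and above them for 5, where 9.16% did. Leaving out WT-11 or WT-21 instead left 9 genes lower at an unadjusted p under 0.05 in each case, while over all genes 398 of 13034 were lower without WT-11 and 210 of 13081 without WT-21. Leaving out WT-23 left 5 histone genes higher, with 376 of 13113 over all genes. Without 5xFAD-2, 5xFAD-3 or 5xFAD-21, the remaining 5xFAD libraries lay below wild type for 6, 5 and 6 histone genes, and for 392, 539 and 550 of all tested genes. The median log2 fold change was −0.72 without WT-22 and between −0.57 and −0.40 without any other library.

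Among the linker histones the low genes and the abundant genes parted. Hist1h1a, which encodes the H1 subtype lost earliest as cells differentiate, had 4.82, 5.27, 6.02 and 3.69 FPKM in 5xFAD, against 16.3, 12.7, 6.13 and 7.95 FPKM in wild type. The groups did not overlap, although 5xFAD-3 and WT-22 nearly met. Its log2 fold change was −1.03 ± 0.30 (SE, adjusted p = 0.546 from limma). Hist1h1b, a linker histone gene linked with proliferating cells, had 1.72, 3.34, 4.31 and 2.36 FPKM in 5xFAD, against 13.4, 11.8, 2.65 and 6.58 FPKM in wild type. WT-22 fell inside the 5xFAD range, the other 3 wild type libraries lay above it, and the log2 fold change was −1.36 ± 0.50 (SE, adjusted p = 0.599). Hist1h1c, the most abundant linker histone gene here and one that stays expressed in resting cells, had 57.9, 68.5, 62.3 and 68.4 FPKM in 5xFAD, against 55.2, 84.3, 50.1 and 65.4 FPKM in wild type. The wild type libraries spanned the 5xFAD ones, with a log2 fold change of 0.037 ± 0.16 (SE). Hist1h1e averaged 40.0 ± 6.27 FPKM in 5xFAD and 38.5 ± 4.01 FPKM in wild type (SD, n = 4 each), a log2 fold change of 0.050. The signs of these last genes turned under 5 and 4 of the 22 alternatives.

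The H2A genes had 9 tested members with a median log2 fold change of −0.44, and Hist1h2ak alone passed an unadjusted p of 0.05, or 4 genes without WT-22, all lower. Of all tested genes 3.33% were lower at that p, or 8.44% without WT-22. Hist1h2ak had 2.81, 3.97, 2.65 and 1.74 FPKM in 5xFAD, against 12.2, 13.7, 3.48 and 6.29 FPKM in wild type, a log2 fold change of −1.505 ± 0.44 (SE, adjusted p = 0.546). WT-22 again lay inside the 5xFAD range. Hist3h2a, the most abundant H2A gene with 48.9% of the H2A total, had 33.4, 38.4, 37.7 and 38.6 FPKM in 5xFAD, against 23.7, 28.0, 33.4 and 36.9 FPKM in wild type. Its groups overlapped and its log2 fold change was 0.30 ± 0.15 (SE). The annotated Hist3h2a transcript overlaps Trim17, with which it shares 29.8% of its stretches of 100 bases. Hist2h2ac averaged 11.3 ± 2.29 FPKM in 5xFAD and 14.01 ± 5.39 FPKM in wild type (SD, n = 4 each), and Hist1h2ac 5.06 ± 0.66 FPKM in 5xFAD and 4.34 ± 0.53 FPKM in wild type (SD, n = 4 each). Their log2 fold changes were −0.24 and 0.22, and both groups overlapped for each gene.

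The H2B genes held members that went either way. At an unadjusted p under 0.05, 6 of the 14 tested were lower in 5xFAD and 2 were higher, or 8 and 3 without WT-22. Over all tested genes 3.33% were lower and 4.57% higher, or 8.44% and 9.56% without WT-22. Hist1h2bm had 0.882, 1.09, 1.36 and 0.646 FPKM in 5xFAD, against 8.33, 6.91, 1.73 and 3.66 FPKM in wild type. The groups did not overlap, and the log2 fold change of −2.08 ± 0.47 (SE, adjusted p = 0.479) was the lowest of the 53 genes. Its 5xFAD mean of 0.995 FPKM was under the minimum of 1, as were those of Hist1h2bk and Hist1h3h, so that these 3 genes entered the test through wild type. No tested member had a wild type mean under 1 FPKM. Without any minimum, 66 histone genes gave a median of −0.49.

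Hist1h2be, by contrast, had 31.5, 31.6, 29.8 and 29.7 FPKM in 5xFAD, against 20.9, 18.9, 24.5 and 21.97 FPKM in wild type. Its 5xFAD libraries lay close together and all above the wild type ones, with a log2 fold change of 0.51 ± 0.10 (SE, unadjusted p = 0.000761). Its annotated coding transcripts, of up to 2506 bases, have 2 exons, and the gene runs from 23583670 to 23621124 on the minus strand of chromosome 13 (GRCm38). Its far first exon overlaps the transcript of Hist1h1e, whose own log2 fold change was 0.050. Hist2h2be, which lies on chromosome 3 and shared no stretch of 100 bases with another gene, had 16.2, 18.2, 15.5 and 12.7 FPKM in 5xFAD, against 9.06, 11.3, 9.92 and 12.4 FPKM in wild type. The closest libraries, 5xFAD-21 and WT-23, differed by little, and the log2 fold change was 0.54 ± 0.15 (SE, adjusted p = 0.545). Hist1h2bc, the most abundant H2B gene with 55.4% of the H2B total, had 164.5, 169.0, 118.4 and 143.0 FPKM in 5xFAD, against 113.8, 95.4, 146.0 and 110.6 FPKM in wild type. WT-22 alone among wild type libraries reached the 5xFAD range, and the log2 fold change was 0.36 ± 0.17 (SE, adjusted p = 0.632).

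**Figure D2:**
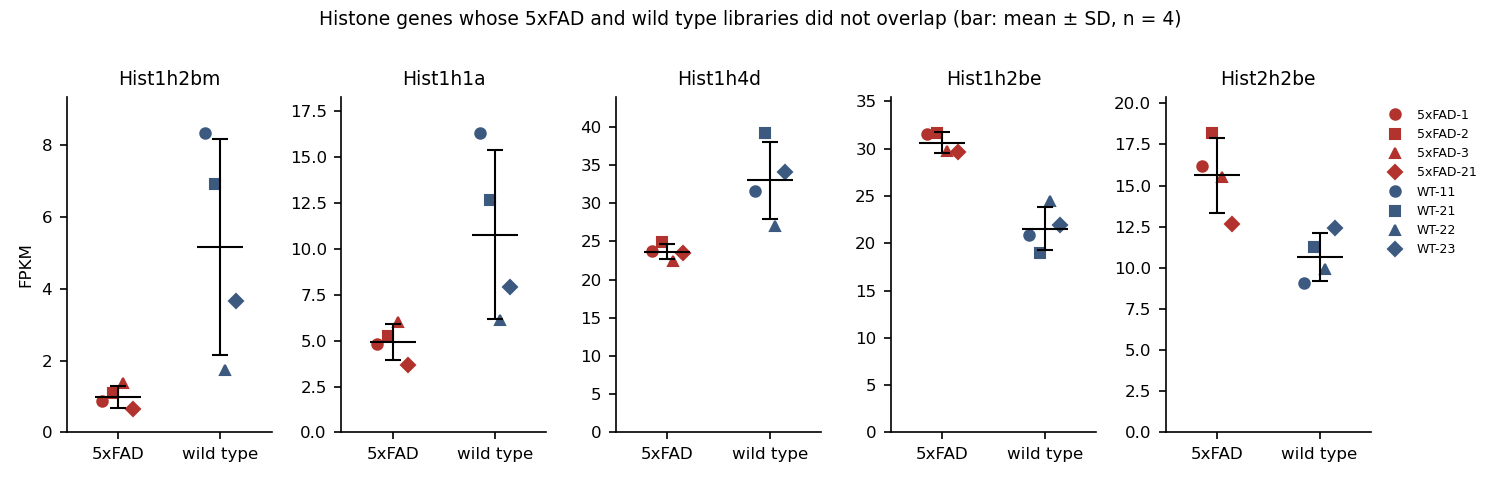
FPKM in each library of the 5 histone genes whose groups did not overlap, with 5xFAD left and wild type right and the library given by the marker shape. Horizontal bars are means and whiskers are SD (n = 4). The first 3 genes were lower in every 5xFAD library, with WT-22 the lowest wild type library for each, and the last 2 were higher.

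The other low H2B genes repeated the pattern of Hist1h2ak across libraries. Hist1h2bn had 2.22, 2.36, 3.81 and 1.48 FPKM in 5xFAD, against 7.91, 11.8, 2.95 and 7.50 FPKM in wild type, and Hist1h2bk had 0.681, 0.720, 1.05 and 1.00 FPKM in 5xFAD, against 3.66, 4.36, 0.754 and 2.84 FPKM in wild type. In both, WT-22 lay inside the 5xFAD range. Their log2 fold changes were −1.49 ± 0.43 and −1.42 ± 0.50 (SE). Hist1h2bb had 8.47, 13.3, 12.1 and 12.6 FPKM in 5xFAD, against 28.4, 28.2, 11.1 and 19.2 FPKM in wild type. Hist1h2bf averaged 1.92 ± 0.61 FPKM in 5xFAD and 3.54 ± 0.81 FPKM in wild type, and Hist1h2bg 10.6 ± 1.73 FPKM in 5xFAD and 14.7 ± 3.24 FPKM in wild type (SD, n = 4 each). The log2 fold changes of these 3 genes were −0.82, −0.86 and −0.46, with adjusted p = 0.596, 0.546 and 0.629 from limma. Hist2h2bb, a gene of the Hist2 cluster, averaged 11.4 ± 2.74 FPKM in 5xFAD and 18.1 ± 6.63 FPKM in wild type (SD, n = 4 each) without reaching an unadjusted p of 0.05.

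The H3 genes had the lowest class median, −0.88 over 12 genes, all of which were tested, with 3 lower at an unadjusted p under 0.05, or 8 lower and 2 higher without WT-22. Of all tested genes 3.33% were lower, or 8.44% lower and 9.56% higher without WT-22. Hist1h3a had 1.86, 1.36, 1.92 and 2.30 FPKM in 5xFAD, against 7.91, 5.95, 2.11 and 4.75 FPKM in wild type, a log2 fold change of −1.31 ± 0.38 (SE, adjusted p = 0.546). Hist1h3c had 1.02, 1.79, 2.45 and 0.493 FPKM in 5xFAD, against 6.28, 8.29, 1.16 and 2.99 FPKM in wild type, a log2 fold change of −1.51 ± 0.65 (SE, adjusted p = 0.627). In both genes the groups were parted but for WT-22. Hist1h3e had 7.87, 7.71, 6.86 and 8.44 FPKM in 5xFAD, against 11.2, 15.6, 8.09 and 11.8 FPKM in wild type, a log2 fold change of −0.56 ± 0.19 (SE, adjusted p = 0.584). The most abundant H3 genes did not share this direction. Hist2h3c1 had 15.8, 14.2, 11.9995 and 17.4 FPKM in 5xFAD, against 9.80, 8.22, 17.8 and 12.5 FPKM in wild type, and Hist2h3c2 had 12.9, 11.2, 11.8 and 12.2 FPKM in 5xFAD, against 5.99, 7.42, 12.1 and 10.7 FPKM in wild type. WT-22 was the highest wild type library for each. It alone among wild type libraries reached the 5xFAD range of Hist2h3c2, while for Hist2h3c1 WT-23 did so too, and the log2 fold changes were 0.34 and 0.46. Of the stretches of 100 bases, 100.0% of those of Hist2h3c1 and 61.6% of those of Hist2h3c2 occur in another gene, among them each other and Gm20634, so these values are uncertain. Hist1h3f averaged 6.03 ± 1.29 FPKM in 5xFAD and 6.67 ± 1.74 FPKM in wild type (SD, n = 4 each), a log2 fold change of −0.13. The H3 median was −1.33 without WT-22. It was 0.11 when a mean of at least 5 FPKM was asked, which only Hist1h3e, Hist1h3f, Hist2h3c1 and Hist2h3c2 reached. Of these, only Hist2h3c1 and Hist2h3c2, whose values are uncertain, lay above 0.

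All H4 genes encode the same protein, and 13 of 13 were tested, with a median log2 fold change of −0.26. Hist1h4d, which shared no stretch of 100 bases with another gene, had 23.7, 24.9, 22.5 and 23.5 FPKM in 5xFAD, against 31.6, 39.1, 27.0 and 34.1 FPKM in wild type. The groups did not overlap, and the log2 fold change was −0.47 ± 0.12 (SE, adjusted p = 0.545). Hist1h4i went the other way, with 43.5, 39.7, 52.9 and 55.4 FPKM in 5xFAD, against 21.9, 21.8, 46.6 and 19.2 FPKM in wild type. WT-22 reached the 5xFAD range and the other 3 wild type libraries lay near 20 FPKM, for a log2 fold change of 0.89 ± 0.27 (SE, adjusted p = 0.546). Hist1h4b had 3.68, 6.34, 5.91 and 5.47 FPKM in 5xFAD, against 14.1, 8.77, 6.15 and 10.4 FPKM in wild type, a log2 fold change of −0.84 ± 0.27 (SE, adjusted p = 0.563). Hist1h4h, the most abundant histone gene of all, had 128.4, 139.2, 97.4 and 161.8 FPKM in 5xFAD, against 120.0, 166.1, 149.1 and 133.8 FPKM in wild type. Its groups overlapped widely, with a log2 fold change of −0.12 ± 0.17 (SE). Hist1h4c averaged 58.9 ± 4.54 FPKM in 5xFAD and 49.4 ± 8.17 FPKM in wild type (SD, n = 4 each), a log2 fold change of 0.27 ± 0.13 (SE). The highest fold change, 2.30 ± 1.04 (SE) for Hist1h4m, a gene named after its values were seen, rested on a WT-21 value of 0. It shared 88.1% of its stretches with other genes.

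The clusters outside Hist1 held genes on either side of 0. The 8 tested Hist2 genes had a median log2 fold change of −0.25, with 1 gene at an unadjusted p under 0.05, which was higher in 5xFAD, beside a median of −0.57 over 42 Hist1 genes, 14 of them lower and 2 higher. Without WT-22, 3 Hist2 genes were lower and 3 higher at that p, and 26 Hist1 genes were lower and 3 higher. Over all tested genes 3.33% were lower and 4.57% higher, or 8.44% and 9.56% without WT-22. Hist2h3b, one of the genes that passed adjustment without WT-22, had 1.31, 0.866, 1.18 and 0.962 FPKM in 5xFAD, against 3.97, 3.31, 0.725 and 2.73 FPKM in wild type, a log2 fold change of −1.03 ± 0.48 (SE) over all libraries. In Hist3, Hist3h2ba, an H2B gene, had 0.468, 0.988, 1.57 and 1.36 FPKM in 5xFAD, against 1.43, 1.41, 3.61 and 1.55 FPKM in wild type, a log2 fold change of −0.81 ± 0.44 (SE), while its neighbour Hist3h2a lay above 0. Here, unlike in the low Hist1 genes, WT-22 was the highest library. Hist4h4, the single gene of Hist4, had 4.07, 1.71, 2.15 and 3.21 FPKM in 5xFAD, against 1.98, 3.33, 3.16 and 2.36 FPKM in wild type, with no difference beyond the spread (log2 fold change −0.0033 ± 0.30, SE). No test of a difference between clusters was run.

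The histone genes were also grouped by level and by transcript model. Both groupings were set after the values were seen, and no difference between groups was tested. The minimum of 1 FPKM bears on every set that held Hist1h2bm, Hist1h2bk or Hist1h3h, which entered the test through wild type. The 9 genes with a mean of at least 20 FPKM had a median log2 fold change of 0.27, with 1 lower and 2 higher among those with an unadjusted p under 0.05. The 19 genes between 5 and 20 FPKM had a median of −0.57, with 8 lower and 1 higher, and the 25 genes between 1 and 5 FPKM had a median of −0.77, with 5 lower and 0 higher. That band held Hist1h2bm, Hist1h2bk and Hist1h3h, and its other 22 genes had a median of −0.74, with 3 lower. Without WT-22 the counts were 1 lower and 3 higher in the highest band, 13 and 3 in the middle one and 15 and 0 in the lowest. Over all tested genes 3.33% were lower and 4.57% higher at that p, or 8.44% and 9.56% without WT-22. By transcript, the 17 genes whose model ended within 100 bases of the stem-loop had a median of −0.84, and 15 of them lay below 0. The 14 genes without the motif in the model had a median of −1.01, and 12 of them lay below 0. Hist1h2bm and Hist1h2bk were among these 17 genes and Hist1h3h among these 14. Medians of the transcript sets without them are not given here. The 22 genes whose model ran over 100 bases past the stem-loop had a median of −0.024, with 12 below 0 and 10 above. Without WT-22 the number below 0 was 15, 12 and 12 again in the same order, with medians of −1.11, −1.35 and −0.058. Length, base composition and level also differed between these sets, and their parts were not tested. In that order, the median transcript length was 476, 411 and 1255 bases and the median GC content 59.5, 63.0 and 50.3%. The median level was 3.08, 5.39 and 9.55 FPKM. With the trend on GC content removed from each library the median of all 53 genes was −0.48, and with the trend on transcript length removed it was −0.55. Both genes with little and genes with much shared sequence lay mostly below 0: the 20 genes that shared under 20% of their stretches had a median of −0.36, with 5 lower and 3 higher, and the 33 others had −0.57, with 9 lower and 0 higher. Without WT-22 these counts were 9 and 3 for the 20 genes, and 20 and 3 for the 33.

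**Figure D3:**
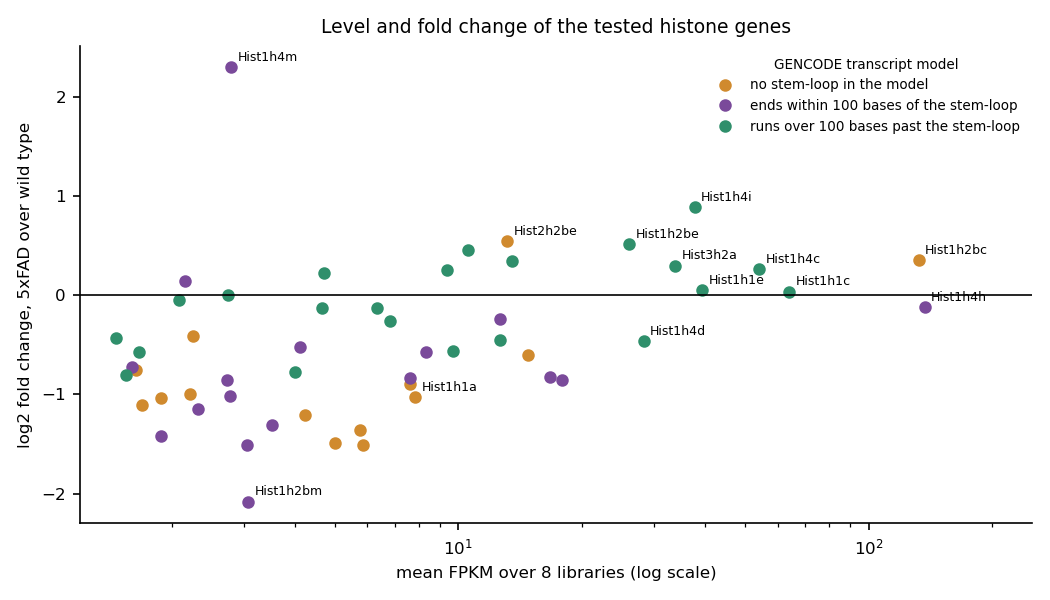
Log2 fold change of the 53 tested histone genes, 5xFAD over wild type, against their mean FPKM over 8 libraries on a log axis, with the colour giving how the annotated transcript relates to the stem-loop. Of the 9 genes at or above 20 FPKM, 7 lay above 0, and of the 25 genes under 5 FPKM, 22 lay below 0.

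Histone genes of H2A and H2B often lie head to head and share a promoter. There were 12 such pairs, with 176 to 306 bases between their starts, and in 5 pairs both genes were tested. Hist1h2ak and Hist1h2bn, whose shared promoter is printed above, had log2 fold changes of −1.505 and −1.492 at mean levels of 5.85 and 5.01 FPKM. Hist1h2ae and Hist1h2bg had −0.44 and −0.46, and Hist1h2ac and Hist1h2bc had 0.22 and 0.36, so that the partners shared their sign in 3 pairs. In the other 2 pairs they did not: Hist1h2ad had 0.15 and Hist1h2bf −0.86, and Hist2h2ac had −0.24 and Hist2h2be 0.54. The partners could differ widely in level, as Hist1h2bc stood at a mean of 132.6 FPKM and Hist1h2ac at 4.70 FPKM.

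Because FPKM is per length, the values of a class could be added. The sum over all 67 genes was 789.6, 825.7, 740.9 and 825.5 FPKM in 5xFAD, against 828.7, 948.1, 763.4 and 795.6 FPKM in wild type, and the groups overlapped with a ratio of means of 0.954. H3 had the lowest ratio, 0.786, with 52.1, 54.1, 55.9 and 59.7 FPKM in 5xFAD, against 73.5, 84.7, 56.6 and 67.6 FPKM in wild type. Only WT-22 kept these groups from parting. H2A averaged 64.6 ± 4.43 FPKM in 5xFAD and 73.5 ± 12.9 FPKM in wild type, a ratio of 0.879, and H1 averaged 114 ± 2.82 FPKM in 5xFAD and 124 ± 22.5 FPKM in wild type, a ratio of 0.918 (SD, n = 4 each). H4 averaged 317 ± 28.3 FPKM in 5xFAD and 331 ± 38.5 FPKM in wild type, a ratio of 0.959, and H2B averaged 244 ± 24.1 FPKM in 5xFAD and 235 ± 12.5 FPKM in wild type, a ratio of 1.04 (SD, n = 4 each). Sums weigh the few abundant genes most. No p-value was computed for sums over chosen genes.

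**Figure D4:**
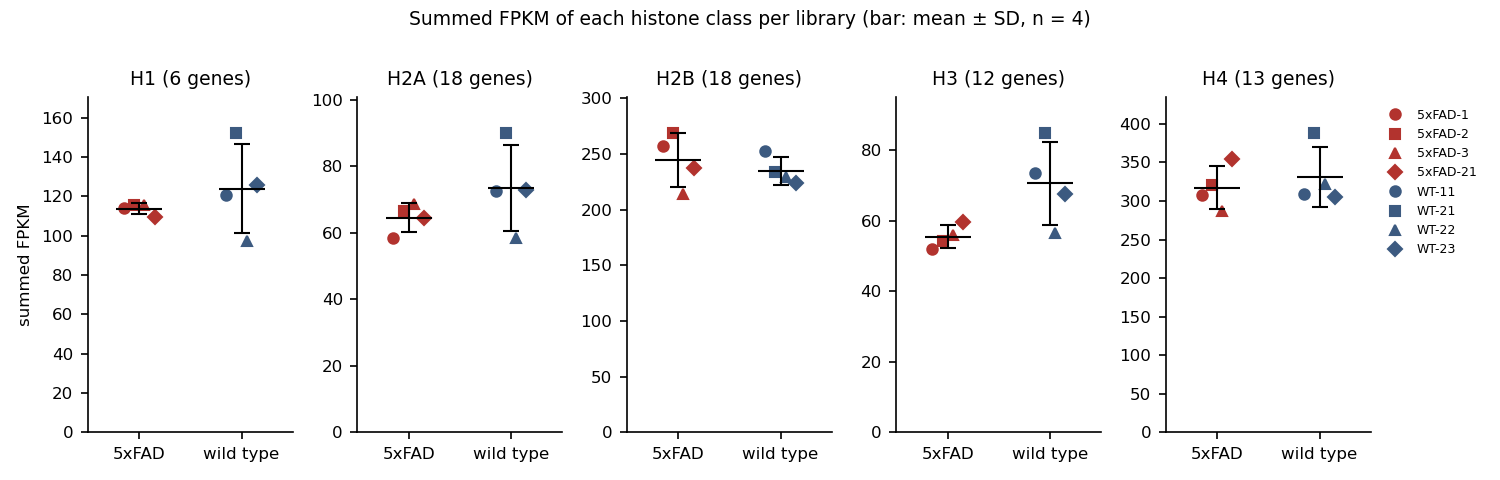
Summed FPKM of the genes of each histone class in each library, 5xFAD left and wild type right, with the mean and SD (n = 4) as bars. The groups overlapped in every class, and in H3 every 5xFAD library lay below WT-11, WT-21 and WT-23.

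The spread of the histone genes within wild type was wide. The median coefficient of variation over the tested genes was 21.3% among 5xFAD libraries and 36.7% among wild type libraries, and for the genes between 1 and 5 FPKM it was 31.8% in 5xFAD and 52.2% in wild type. Of the 53 tested histone genes, 22 were highest in WT-21 and 13 in WT-11. In 32 of them (60.4%) WT-22 lay below the other 3 wild type libraries. Over all tested genes WT-22 lay below the other 3 in 33.7%. The median log2 deviation of the 53 genes from their means was −0.39, −0.090, −0.12 and −0.15 in the 5xFAD libraries, against 0.44, 0.56, −0.27 and 0.18 in the wild type ones. WT-22 thus lay on the 5xFAD side of the other wild type libraries.

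Markers of other cells that divide or that could come from nearby bone marrow and bone also varied between libraries. The 10 neutrophil precursor markers, which include the granule genes Ngp and Camp and the neutrophil protease gene Elane, summed to 4.81 to 62.2 FPKM in 5xFAD and 3.96 to 124 FPKM in wild type, with WT-11 highest and WT-22 lowest. Of the 6 tested, 5 lay below 0, and their median log2 fold change was −0.78. The 8 osteoblast markers summed to 17.9 to 77.8 FPKM in 5xFAD and 26.8 to 170.0 FPKM in wild type, with a median of −1.37 over 7 tested genes. The tested neutrophil marker Mpo and osteoblast marker Ifitm5 had 5xFAD means of 0.659 and 0.553 FPKM. Both means were under the minimum of 1 FPKM, so these genes entered the test through wild type. The 10 B cell precursor markers summed to 9.34 to 12.6 FPKM in 5xFAD and 4.97 to 21.6 FPKM in wild type, and the 9 erythroid markers, mainly globin genes, to 914 to 4820 FPKM in 5xFAD and 695 to 5583 FPKM in wild type. None of these markers was at 0 in all libraries. By median log2 deviation, neutrophil markers stood at 2.49 in WT-11, 1.29 in WT-21 and −2.68 in WT-22, but also at 1.34 in 5xFAD-3, where the histone genes were at −0.12. Osteoblast markers stood at 2.38 in WT-11, 1.19 in WT-21 and −1.72 in WT-22, but also at 1.33 in 5xFAD-2, where the histone genes were at −0.090. Erythroid markers were highest in WT-22, so that the marker lists followed the histone genes in some libraries and not in others. With the mean deviation of 16 tested neutrophil, erythroid and B cell precursor markers as a term, a fit added after the data were seen, 10 histone genes had an unadjusted p under 0.05 with lower values in 5xFAD and 3 with higher values, and the median was −0.34, while over all 13094 genes 487 were lower and 510 higher in that fit. The H2A median was then −0.095 and the H3 median −0.45. In WT-22 this term stood at −0.28, where neutrophil markers were at −2.68 and erythroid markers at 2.24 by median. It held no osteoblast markers. The term thus does not stand for neutrophil precursors or bone alone, and the part of these cells in the histone values was not tested.

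**Figure D5:**
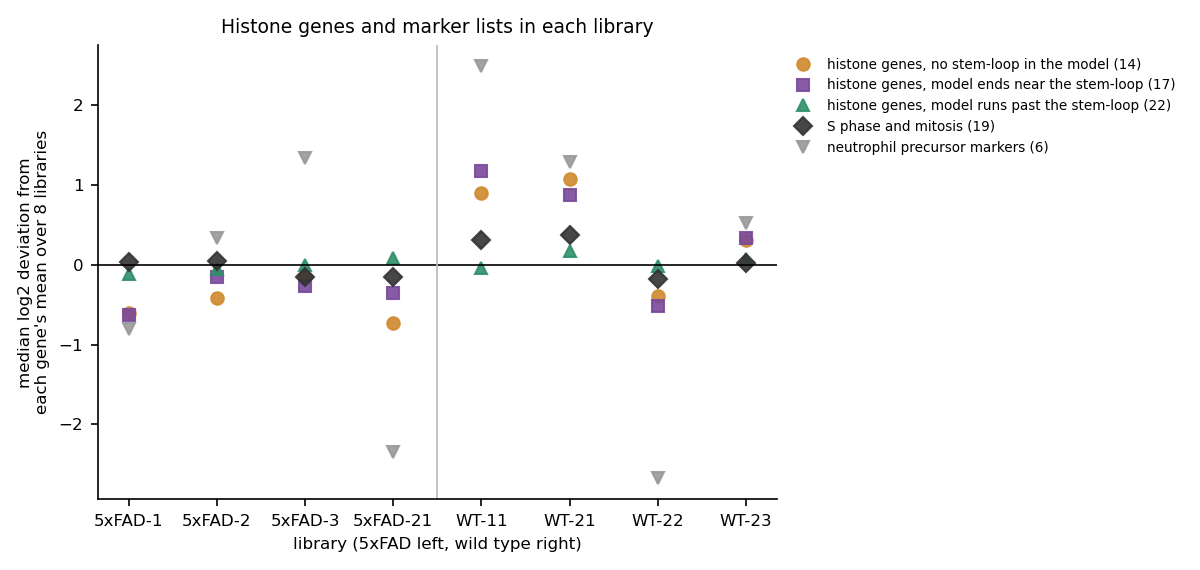
Median log2 deviation from each gene's mean over 8 libraries, for histone genes by transcript model, S phase and mitosis genes and neutrophil precursor markers, with 5xFAD libraries left and wild type libraries right. Histone genes without the stem-loop in the model or ending near it stood above 0 in WT-11, WT-21 and WT-23 and below 0 in WT-22, while those running past it stayed within 0.17 of 0 in every library.

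Genes of DNA replication and mitosis lay more often below 0 than above it, with 13 below and 6 above among those tested. Of 28 genes listed, 19 were tested, and 2 had an unadjusted p under 0.05 with lower values in 5xFAD (3.33% of all tested genes) and 1 with higher values (4.57% of all tested genes). None of them passed at an adjusted p under 0.05 in limma. The median log2 fold change was −0.25. It was 0.073 over Pcna, Rrm1, Mcm4 and Mcm7, the only members with a mean of at least 5 FPKM. Ccna2, the S phase cyclin, averaged 1.22 FPKM in 5xFAD and 2.03 FPKM in wild type (log2 fold change −0.66 ± 0.27, SE), and Birc5, a mitotic survival factor, 0.798 FPKM in 5xFAD and 1.81 FPKM in wild type (−1.04 ± 0.45, SE). Mcm4, a subunit of the replicative helicase, was higher, at 9.42 FPKM in 5xFAD and 7.59 FPKM in wild type (0.30 ± 0.12, SE). The adjusted p of these 3 genes was 0.609, 0.627 and 0.609 from limma. Top2a and Mki67, named after their values were seen, had the lowest log2 fold changes of the list, −1.38 and −1.17. Their groups overlapped (adjusted p = 0.642 and 0.646 from limma). Top2a, Birc5, Cdk1 and Uhrf1, all below 0, had 5xFAD means of 0.711, 0.798, 0.959 and 0.898 FPKM, under the minimum of 1. These genes entered the test through wild type. Pcna, the sliding clamp of DNA polymerase and the most abundant gene of the list, averaged 32.9 FPKM in 5xFAD and 31.7 FPKM in wild type (0.032), and Rrm1 and Mcm7 had log2 fold changes of 0.11 and −0.067.

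The genes that make and break down histone mRNA were measured as well, and 0 of 19 tested reached an unadjusted p of 0.05. Of all tested genes 3.33% were lower and 4.57% higher at that p, so few would be reached among 19 genes at these shares. Slbp, the stem-loop binding protein, averaged 11.3 FPKM in 5xFAD and 9.71 FPKM in wild type (log2 fold change 0.21 ± 0.14, SE), and Npat, which activates histone gene transcription, 5.99 FPKM in 5xFAD and 5.79 FPKM in wild type (0.059 ± 0.13, SE). Both were chosen for their role after the values were seen. The cleavage factors Cpsf3, Cpsf2 and Cstf2 and the scaffold Sympk had log2 fold changes of 0.024, 0.037, −0.033 and −0.092, for Cpsf3, Cpsf2, Cstf2 and Sympk in this order. The median of this list was −0.021.

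Of 21 tested histone chaperones and carriers, 2 had an unadjusted p under 0.05, both with higher values in 5xFAD (4.57% of all tested genes), and the median log2 fold change was 0.014. Rbbp4, a subunit of chromatin assembly factor 1, averaged 43.6 FPKM in 5xFAD and 35.8 FPKM in wild type (0.29 ± 0.10, SE, adjusted p = 0.584), and its groups did not overlap. Hat1, which acetylates newly made H4, averaged 33.1 FPKM in 5xFAD and 26.5 FPKM in wild type (0.32 ± 0.12, SE, adjusted p = 0.599). Nap1l1, Npm1, Rbbp7 and Atrx, the 4 most abundant members, lay between −0.099 and 0.14. Most mRNAs of the genes listed as replication-independent histones are polyadenylated and do not follow S phase. Of these genes, 0 of 9 tested had an unadjusted p under 0.05, where 3.33% of all tested genes were lower and 4.57% higher. The median of this list was −0.060. H3f3b and H3f3a, which encode the variant H3.3, averaged 279 and 173 FPKM in 5xFAD and 229 and 199 FPKM in wild type, with log2 fold changes of 0.27 and −0.21, and H2afv and H2afy had 0.017 and −0.060.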

How the data were processed

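FPKM per gene and library were made by the authors before deposit. Per the study's methods, paired reads of 100 nt were trimmed with Trimmomatic, aligned to mm10 with STAR and quantified with Cuffnorm on GENCODE M17. Their versions are not given in the sources used here. The table gives no read counts, so depth is unknown, and low values are the least precise.

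For the fold changes, limma 3.58.1 (R 4.3.3; lmFit, then eBayes with a trend and no covariate) was run on log2(FPKM + 0.1). Protein-coding genes and 859 lncRNAs reached the minimum, a mean of 1 FPKM over 8 libraries, and shared one fit, with Benjamini-Hochberg adjustment over the 13094 protein-coding genes. The fit was tested on simulated data. Of the 67 histone genes, 14 were below the minimum. Summaries were made in Python 3.11.15. Transcripts and stem-loops came from GENCODE M21 (GRCm38), matched by gene ID for all 67 genes, and promoters from RefSeq (GRCm38.p6), where 8 genes were without a match.

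Members and gene lists were chosen with earlier results of these data known. Named were, in each class, the 4 tested genes with the highest mean, every gene at an unadjusted p under 0.05 or with groups that did not overlap, all tested Hist3 and Hist4 genes and the testis genes, and of other lists the 4 most abundant genes and those at an unadjusted p under 0.05, at most 8. Alternatives were pseudocounts of 0.01 and 1, no minimum, a minimum of 5 FPKM, median-ratio, quantile and equal-total scaling, removal of trends on GC content or length (lowess span 0.3), a term for low or high shares of unread bases, array weights, no trend, replicate numbers as a block, a bone marrow marker score as a term (added after seeing the data) and leaving out each library. Amino acid sequences, the transgenes, which the annotation lacks, and 2 rows with histone symbols that are not protein-coding were not used here.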

Additional observations from a re-analysis of the deposited data

Results flagged for a closer look

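In 4 of 74 groups of 4 libraries checked, over 31 histone genes and the class sums, the highest or lowest library stood far from the other 3. Chance alone would give about 1 in 20 groups. WT-22 was the highest wild type library for Hist1h4i, at 46.6 FPKM with the next at 21.9 FPKM, and for Hist3h2ba, at 3.61 FPKM with the next at 1.55 FPKM. Among 5xFAD libraries, 5xFAD-2 was highest for Hist1h2bf, at 2.84 FPKM with the next at 1.66 FPKM, and 5xFAD-1 was lowest for Hist3h2a, at 33.4 FPKM with the next at 37.7 FPKM.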

How the results depend on the processing

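With 4 pools a group and no counts, low genes are the least certain, and supplier, the GC rate of the reads, which parted the groups fully in the study's sample table, and genotype cannot be told apart. Only 1 wild type library had a low share of unread bases and only 1 5xFAD library a high one, too few for a value within either set alone. The fit with a term for the set, over all 8 libraries, is given here.

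Of the 31 histone genes named by rule, 25 kept their sign under all 22 alternatives. Of the exceptions, Hist2h2ac had a log2 fold change of −0.24 and the others lay between −0.13 and 0.050. Hist1h1c turned to −0.048 with quantile normalization, −0.027 with the length trend removed, −0.096 with array weights and −0.069 to 0.18 without single libraries. Hist1h1e turned to −0.0037 with quantile normalization, −0.015 with array weights, and −0.046 to 0.13 without single libraries. With a term for unread bases Hist1h3f turned to 0.11, Hist1h4h to 0.061 and Hist4h4 to 0.22. Hist4h4 turned to 0.0059 with a pseudocount of 1, 0.050 with quantile normalization and 0.028 with equal totals. Without single libraries Hist1h3f lay between −0.26 and 0.027, Hist1h4h between −0.23 and 0.013 and Hist4h4 between −0.21 and 0.20, and with the bone marrow score Hist2h2ac turned to 0.027.

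The number of histone genes at an unadjusted p under 0.05 and lower in 5xFAD was 14, and 9 with a minimum of 5 FPKM, 24 with array weights and 9 to 29 without single libraries. Over all tested genes the number lower was 436, and 300 with that minimum, 834 with array weights and 210 to 1109 without single libraries. The number higher was 3, and 6 with equal protein-coding totals, where 12 were lower, 5 with unread bases as a term, where 18 were lower, 6 with array weights and 3 to 6 without single libraries. Over all tested genes the number higher was 598, and 879 with equal totals, 692 with unread bases as a term, where 908 were lower, and 1008 with array weights. It was 302 to 1255 without single libraries. At an adjusted p under 0.05 the number of histone genes was 0 under every alternative that kept all libraries and 0 to 7 without single libraries. The 7 came without WT-22, where 91 of all tested genes passed. Without single libraries, 3 to 24 histone genes lay wholly below and 2 to 5 wholly above wild type. Over all tested genes, 360 to 970 lay wholly below and 325 to 1203 wholly above. The median of −0.56 was −0.25 with a minimum of 5 FPKM, where 28 of the 53 genes were left, and −0.72 to −0.40 without single libraries.

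The S phase and mitosis median of −0.25 was 0.073 with a minimum of 5 FPKM, which only Pcna, Rrm1, Mcm4 and Mcm7 reached. It was −0.36 to −0.12 without single libraries. With unread bases as a term the histone mRNA control median was 0.058 and that of the chaperones 0.12, and these were −0.041 to 0.018 and −0.022 to 0.15 without single libraries. Class sums moved by less than the spread between libraries under every alternative run on them. The causes were not tested.

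No source used here says that a replicate number marks shared mice or days, and same-numbered pairs correlated at −0.04, 0.21, −0.34 and 0.24 across genes after group means were removed. With a block by replicate number, 13 histone genes had an unadjusted p under 0.05 with lower values in 5xFAD and 3 with higher values, and 0 passed adjustment. Over all 13094 genes 305 were lower and 387 higher in that fit.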
